A study of Mus musculus with 7 samples.

Results

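The genes used here as markers of veins and of the ascending vasa recta number 8 and were followed across 7 RNA sequencing libraries of mouse kidney endothelial cells. They are Nr2f2, Ephb4, Plvap, Cd9, Gas6, Gpr182, Cryab and Tll1, found by symbol among 26558 named genes of the deposited table, and all 8 were measured. The cells came from kidneys of male C57BL/6 mice at 3 months of age and were pulled out with anti-Cd31 on magnetic beads, and their RNA was extracted with no culture step. The 3 wildtype libraries are from mice with Hoxb7-Cre-GFP alone. The 4 mutant libraries are from Hoxb7-Cre-GFP-VhlhloxP/loxP mice, in which the Cre driven by Hoxb7, a promoter of the collecting duct lineage, removes Vhlh, the gene for the von Hippel-Lindau protein. Both groups therefore carry the Cre and the GFP, and the deletion was aimed at tubule cells and not at the endothelial cells that were measured. Whether each library came from a separate animal is not in the labels. The p-values therefore reflect only how much these libraries vary, which may be technical. Vhl, the mouse symbol of the targeted gene, was at 6.78, 6.71 and 8.24 FPKM in wildtype 1 to 3 and at 5.79, 5.57, 6.41 and 6.24 in mutant 1 to 4, lower in all mutants but not called (limma log2 fold change -0.23, adjusted p = 0.123), and in cells outside the target of the Cre it does not check the labels.

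The ascending vasa recta are the vessels that drain the kidney medulla. They are venous in character, with a thin fenestrated wall through which water reabsorbed by the tubules returns to the blood. Venous identity in endothelium is set by the transcription factor COUP-TFII, the product of Nr2f2, which holds down Notch signalling, and veins carry the receptor EphB4 where arteries carry its ligand ephrin-B2. The comparison asks how these markers differ between endothelial isolates from kidneys with and without the tubule deletion.

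Values are FPKM, fragment numbers scaled by transcript length and library size, so levels can be set side by side between genes. FPKM hold no read totals. Judged by steps in the low values, wildtype 3 was the shallowest library, at 0.711 of the depth of wildtype 1, which was the deepest. Between 13222 and 13337 genes a library were at an FPKM of 1 or more. In bulk RNA, fewer cells of a type and less RNA per cell cannot be told apart. All 8 markers were at an FPKM of 6.87 or more in every library. Endothelial transcripts were present throughout, with summed levels over 18 general endothelial genes of 1724 to 2500 in wildtype and 2679 to 2901 in mutant libraries. Pecam1, the gene for Cd31, rose by 0.53 on the log2 scale (adjusted p = 0.0379) and Cdh5, VE-cadherin, by 0.56 (adjusted p = 0.0316), both calls being lost in fits lacking 1 of wildtype 2 and 3 and mutant 1, 2 and 4 (largest adjusted p = 0.114 and 0.093). Other cell types were present too, since Lrp2 of the proximal tubule, Aqp2 of the collecting duct and C1qa of macrophages were well above 0 in every library. The 11 proximal tubule markers summed to 3003 to 5464 in wildtype and 823 to 7757 in mutant libraries, with 0 called by limma (1 at an unadjusted p under 0.05). Kap alone held 2378 to 4303 and 231 to 6791 of these sums, and the other 10 markers summed to 609.6 to 1161 and 377 to 965.5.

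Of the 8 markers 4 rose in the mutant libraries, Nr2f2, Cd9, Gpr182 and Tll1, and 0 were called lower. Ephb4, Plvap, Gas6 and Cryab were not called. A call means a Benjamini-Hochberg adjusted p under 0.05 from limma, fitted to log2(FPKM + 1) of the 13420 genes whose FPKM averaged 1 or more, and fold changes below are on that log2 scale unless FPKM is named. Over all tested genes 8.76% were called higher and 7.34% lower, and the median log2 fold change was 0.04, against 0.53 for the 8 markers. At an unadjusted p under 0.05 the markers numbered 6, all with higher means in mutants. Of the 13420 tested genes, 4354 were at that level, in either direction. A log2 fold change above 0 was found for 56.8% of all tested genes. In 3 of the 8, Nr2f2, Cd9 and Gpr182, every mutant library lay above every wildtype library, which held for 18.9% of all tested genes. The count of 4 calls fell to 2 without wildtype 2, wildtype 3, mutant 2 or mutant 4.

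**Figure D1:**
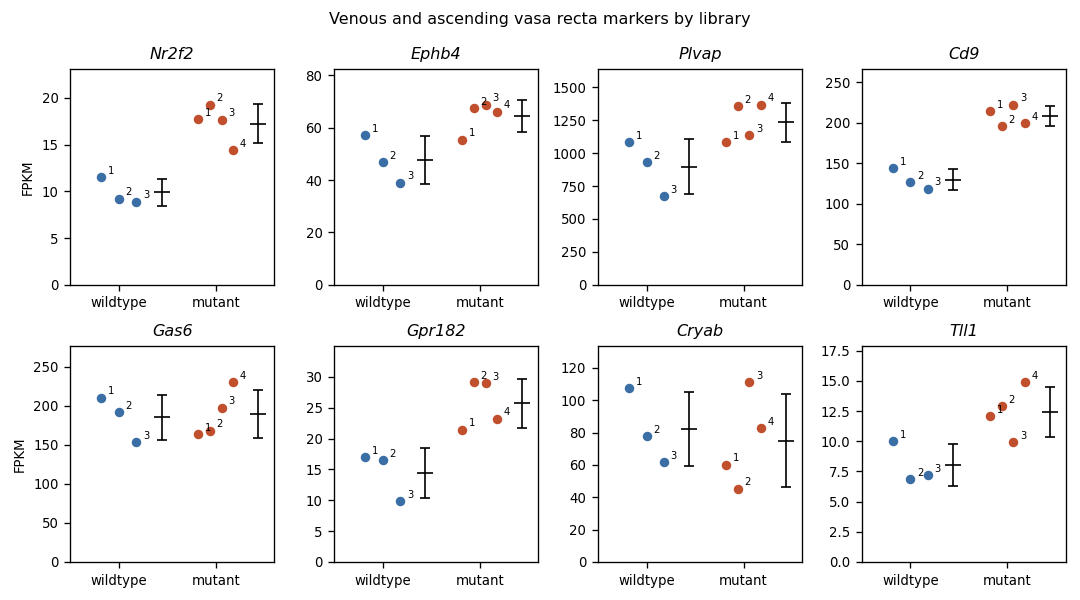
FPKM (vertical axis, from 0) of each of the 8 markers in the 3 wildtype (blue) and 4 mutant (orange) libraries, each point a library with its replicate number and the black mark the mean with its SD. The groups are apart for Nr2f2, Cd9 and Gpr182, touch for Tll1, Ephb4 and Plvap, and lie over each other for Gas6 and Cryab.

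Plvap, the protein that forms the diaphragms of fenestrae and caveolae, was by far the highest, with a mean FPKM of 1091 over all libraries that exceeded 99.8% of tested genes. Gas6 (187.8) and Cd9 (174.6) followed, then Cryab (78.1) and Ephb4 (57.3), and Gpr182 (20.9), Nr2f2 (14.1) and Tll1 (10.6) were lowest, Tll1 still above 54.1% of tested genes. Gas6 was above Cd9 in each wildtype library, and their mutant ranges overlapped, at 164 to 230.2 for Gas6 and 196 to 222 for Cd9. The ranges of Cryab and Ephb4 overlapped among mutants, those of Gpr182 and Nr2f2 among wildtype libraries, and those of Nr2f2 and Tll1 in both groups, so these neighbours were not separated beyond their spread there.

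Nr2f2, the venous transcription factor, was at an FPKM of 11.5, 9.21 and 8.88 in wildtype 1 to 3 and at 17.7, 19.3, 17.7 and 14.4 in mutant 1 to 4. Even the lowest mutant library, mutant 4, stood above the highest wildtype library. The mean rose from 9.88 ± 1.45 (SD, n = 3) to 17.25 ± 2.06 (SD, n = 4), a ratio of 1.75, and the log2 fold change was 0.75 (standard error, SE, 0.123, 95% interval 0.46 to 1.03, limma adjusted p = 0.00723). The call held without any 1 library, and ended when libraries were scaled on endothelial genes (log2 fold change 0.37, adjusted p = 0.0751). Nr2f2 lies on chromosome 7 from 70351944 to 70366735 on the minus strand in the mm10 build (GENCODE M21), with 6 annotated transcripts. On the opposite strand B130024G19Rik, a noncoding gene, overlaps 1826 bases of it and was at mean FPKM of 1.27 in wildtype and 1.93 in mutants. The library kit keeps strand, but the sources used here do not say that counting used it.

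Nr2f2 is also made by lymphatic endothelium and by pericytes and smooth muscle. The 6 lymphatic markers summed to an FPKM of 52.1 to 93.9 in wildtype and 96.2 to 109 in mutant libraries, and Ccl21a held most of these sums, the other 5 summing to 9.64 to 14.2 and 15.2 to 21.6. Of the 6 Pdpn was called higher, a call lost when any library except wildtype 1 was left out (largest adjusted p = 0.119). Prox1 (1.65 and 2.15) and Lyve1 (1.25 and 1.80) were near the bottom of the tested range in both groups. The 14 stromal, pericyte and smooth muscle markers summed to 192 to 267 in wildtype and 233 to 275 in mutants. Ren1 alone held 32.7 to 39.1 and 60.3 to 94.4 of these sums. The other 13 markers summed to 159.5 to 228.7 in wildtype and 165.5 to 183 in mutants. Of 12 tested 1 was called higher (Ren1) and 1 lower (Notch3). The Notch3 call held only in the fits lacking wildtype 3 or mutant 1, and was lost in the other 5 that left out 1 library (largest adjusted p = 0.154). The part of these cells in the level of Nr2f2 was not tested. Among proteins related to COUP-TFII, Nr2f6 was not called (log2 fold change 0.14), and Nr2f1 and Zfpm2, a cofactor, were under the filter, so that of 4 partners, Prox1 included, 2 were tested and 0 called (limma, 0 at an unadjusted p under 0.05).

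Cd9, a tetraspanin that organises integrins and other surface proteins in the membrane, had the narrowest spread of the 8 markers. It was at an FPKM of 144, 127 and 119 in wildtype 1 to 3 and at 214, 196, 222 and 199.5 in mutant 1 to 4. The groups were far apart relative to their spread. The mean rose from 130.0 ± 12.97 (SD, n = 3) to 208 ± 12.3 (SD, n = 4), and the log2 fold change was 0.68 (SE 0.094, 95% interval 0.46 to 0.90, limma adjusted p = 0.00384). The call held without any 1 library, and ended under the same endothelial scaling (0.27, adjusted p = 0.134). Cd9 lies on chromosome 6 from 125460266 to 125494791 on the minus strand.

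Cd9 is not confined to endothelium and is found in tubule epithelium as well. The 19 distal nephron and collecting duct markers summed to 1736 to 1956 in wildtype and 2011 to 3093 in mutant libraries, and 4 of the 19 were called higher (Slc12a3, Krt8, Krt18 and Krt19), while Aqp2 was lower in mean (79.5 and 35.5, not called). Without mutant 3, 4 were called higher and 4 lower, and under endothelial scaling 2 higher and 4 lower. The highest mutant library was mutant 3 both for this sum and for Cd9, while among wildtype libraries wildtype 1 was lowest for the sum and highest for Cd9. Umod held most of the sum, and the other 18 markers summed to 681.4, 676.8 and 585 in wildtype 1 to 3 and to 718, 639.7, 913.5 and 813 in mutant 1 to 4, with overlapping groups. The part of tubule cells in the level of Cd9 was not tested. Of 7 partners of Cd9 in the membrane 3 rose, 1 fell and 3 were not called. Ptgfrn, an immunoglobulin-family partner of Cd9, rose from 1.25 ± 0.207 to 2.42 ± 0.283 (log2 fold change 0.61, limma adjusted p = 0.00987), and its relative Igsf8 fell from 14.6 ± 1.08 to 9.83 ± 1.07 (-0.53, 0.0115), a call lost without wildtype 2 (0.0621). Cd63, the lysosomal tetraspanin, rose by 0.49 and Hbegf, a growth factor that Cd9 binds, by 0.58 (0.038 and 0.042). Leaving out any library except wildtype 3 or mutant 3 ended the Cd63 call (largest adjusted p = 0.14), and leaving out any except mutant 3 that of Hbegf (0.129). Cd81, a tetraspanin that often joins Cd9, was not called (log2 fold change -0.28, adjusted p = 0.138), nor was Cd151 (0.29, 0.0761). With array weights (-0.35, limma adjusted p = 0.026) and under endothelial scaling (-0.69, 0.0163) Cd81 was called lower.

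The stretches before the annotated starts of Nr2f2 and Cd9, the 2 markers with the steadiest rises, are shown with that of Gas6, whose means differed least. Each is the RefSeq sequence of GRCm38.p6, the minus strand 5′ to 3′, ending at the base before the RefSeq start for Nr2f2 and Gas6. The Cd9 stretch stops 31 bases short of it, where a GENCODE exon begins. They are chr7:70366747-70366996, chr6:125494792-125495010 and chr8:13494536-13494785. Capitals mark GGGCGG on either strand, the core of the GC box bound by Sp1.
Nr2f2: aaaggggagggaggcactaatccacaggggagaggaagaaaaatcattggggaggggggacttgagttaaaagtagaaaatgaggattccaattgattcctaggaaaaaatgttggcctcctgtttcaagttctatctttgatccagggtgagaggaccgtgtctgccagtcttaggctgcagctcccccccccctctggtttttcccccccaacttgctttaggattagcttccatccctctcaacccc
Cd9: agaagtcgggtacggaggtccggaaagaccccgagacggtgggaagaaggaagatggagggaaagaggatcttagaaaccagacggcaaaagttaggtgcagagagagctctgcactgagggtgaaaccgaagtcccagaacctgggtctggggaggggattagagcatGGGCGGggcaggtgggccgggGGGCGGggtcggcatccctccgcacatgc
Gas6: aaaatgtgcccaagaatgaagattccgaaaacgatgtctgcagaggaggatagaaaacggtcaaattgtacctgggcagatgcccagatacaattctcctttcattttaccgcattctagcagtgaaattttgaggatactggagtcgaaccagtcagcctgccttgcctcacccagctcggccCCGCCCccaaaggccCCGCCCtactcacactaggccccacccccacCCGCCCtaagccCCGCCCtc
GGGCGG was found in the Cd9 window 81 and 60 bases before the start, at 4 places before Gas6 and at none before Nr2f2, and 32.7% of all promoter windows of 250 bases hold it. The letters ACGTG and GCGTG, the core of sites bound by hypoxia-inducible factors, were in none of the windows of the 5 markers with a RefSeq entry, on either strand, where 16.6% and 28.1% of all windows hold them. The STAT-type motif TTCNNNGAA was in none either, against 7.0% of all windows. Among the 5 windows, that of Tll1 lies in a GENCODE exon over all its 250 bases. By that annotation it is therefore not sequence before the gene. These counts describe the letters in 250 bases and say nothing of binding.

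Gpr182, an endothelial receptor that takes up chemokines without signalling, was at an FPKM of 17.03, 16.5 and 9.81 in wildtype 1 to 3 and at 21.5, 29.2, 29.0 and 23.2 in mutant 1 to 4. All mutant libraries were above all wildtype libraries, and wildtype 3 was low. The mean rose from 14.45 ± 4.03 (SD, n = 3) to 25.7 ± 3.96 (SD, n = 4), and the log2 fold change was 0.81 (SE 0.199, 95% interval 0.35 to 1.28, limma adjusted p = 0.032). This was the largest fold change of the 8 markers and one of the less secure, since the call was lost when 1 of wildtype 2 and 3 and mutant 2, 3 and 4 was left out (adjusted p of 0.0544 to 0.0681), the fold change being 0.58 without wildtype 3. It was also lost with no filter (0.0589), at the same library total (0.0667), under endothelial scaling (0.0679) and with replicate number as a block (0.134). Gpr182 lies on chromosome 10 from 127747276 to 127751732. Of the 3 tested genes among its chemokine ligands and related scavenging receptors none was called (limma, 0 at an unadjusted p under 0.05), with Cxcl10 at 0.34 and Cxcl12 at -0.21.

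Tll1, tolloid-like 1, a secreted metalloprotease that cuts procollagens and the BMP antagonist chordin, was the lowest of the 8 markers. It was at an FPKM of 9.995, 6.87 and 7.19 in wildtype 1 to 3 and at 12.1, 12.9, 9.93 and 14.9 in mutant 1 to 4. Mutant 3 fell just under wildtype 1, so the groups touched. The mean rose from 8.02 ± 1.72 (SD, n = 3) to 12.45 ± 2.06 (SD, n = 4), and the log2 fold change was 0.58 (SE 0.159, 95% interval 0.21 to 0.95, limma adjusted p = 0.0452). The call was lost in fits lacking 1 of wildtype 2 and 3 and mutant 1, 2 and 4 (adjusted p of 0.088 to 0.167). It was also lost with no filter (0.0783), at the same library total (0.0628), by median of ratios (0.0542), under endothelial scaling (0.301) and with replicate number as a block (0.133). Tll1 lies on chromosome 8 from 64014931 to 64206271. Pcolce, the enhancer of procollagen processing by this protease family, rose from 26.8 ± 1.61 to 42.35 ± 4.26 (log2 fold change 0.64, limma adjusted p = 0.00496), a call that ended under endothelial scaling (0.24, adjusted p = 0.228). Its relative Bmp1 was not called (log2 fold change 0.24), and Tll2 is listed at 0 in all 7 libraries.

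Ephb4, the venous receptor tyrosine kinase for ephrin-B2, was at an FPKM of 57.1, 46.8 and 39.0 in wildtype 1 to 3 and at 55.4, 67.6, 68.8 and 66.1 in mutant 1 to 4. Mutant 1 lay inside the wildtype range and the other mutants above it. The means were 47.7 ± 9.08 (SD, n = 3) and 64.5 ± 6.14 (SD, n = 4), and the log2 fold change of 0.44 (SE 0.138, 95% interval 0.12 to 0.76) was not called (limma adjusted p = 0.0689), although it was without wildtype 1 (log2 fold change 0.58, adjusted p = 0.035). Efnb2, the arterial ligand, was at 39.1 ± 6.38 and 38.8 ± 3.41 (log2 fold change -0.01, limma adjusted p = 0.983; the sign was positive without wildtype 1, mutant 1 or mutant 2).

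Set against its ligand in the same library, Ephb4 was higher in the mutants. The FPKM ratio of Ephb4 to Efnb2 was 1.25, 1.21 and 1.18 in wildtype 1 to 3 and 1.52, 1.91, 1.62 and 1.62 in mutant 1 to 4. The wildtype ratios lay close together and all 4 mutant ratios were above them. On the log2(FPKM + 1) scale the wildtype ratio was 0.27 ± 0.04 (SD, n = 3) and the mutant ratio 0.72 ± 0.14 (SD, n = 4), a difference of 0.45 (two-sided exact permutation test over 35 divisions of the libraries, p = 0.0286, the smallest that 3 against 4 libraries can give). The FPKM ratio within a library does not move with its scaling, and it does not tell a gain of the receptor from a loss of the ligand. With any 1 library left out the difference was 0.38 to 0.49, where the smallest possible p is 0.0667 or 0.1. Ephb4 lies on chromosome 5 from 137350109 to 137378669 on the plus strand.

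Plvap was at an FPKM of 1084, 932 and 671 in wildtype 1 to 3 and at 1084, 1360, 1135 and 1368 in mutant 1 to 4. Mutant 1 was level with wildtype 1 and the other mutants were higher. The means were 896 ± 209 (SD, n = 3) and 1237 ± 148 (SD, n = 4), and the log2 fold change of 0.49 (SE 0.178, 95% interval 0.07 to 0.90) was not called (limma adjusted p = 0.106), nor was it without any 1 library. Among 5 genes of the caveolar coat and its ATPase, which share the caveola with Plvap, Cav2 was called higher, by 0.43 (limma adjusted p = 0.0457). That call was lost without any library except wildtype 1 (largest adjusted p = 0.165). Cav1, the main caveolin, was not called (log2 fold change 0.33, adjusted p = 0.149). Plvap lies on chromosome 8 from 71497765 to 71511752, where Gtpbp3 overlaps it by 1819 bases on the opposite strand (mean FPKM of 5.61 and 4.95).

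**Figure D2:**
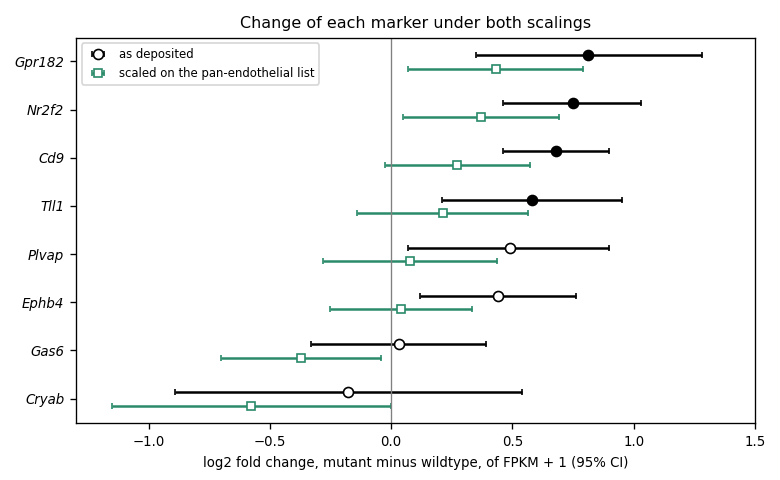
Log2 fold change of FPKM + 1, mutant minus wildtype, with its 95% interval from limma, for each of the 8 markers as deposited (circles, filled where called) and after dividing each library by its general endothelial level (open squares, none called). The squares lie to the left of the circles for all 8 genes, as they would for any gene, because the general endothelial level was higher in the mutants.

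Gas6, a vitamin K-dependent ligand of the receptors Axl, Tyro3 and Mertk, differed little in mean. It was at an FPKM of 210.1, 192 and 153.5 in wildtype 1 to 3 and at 164, 168, 197 and 230.2 in mutant 1 to 4. The groups lay over each other, with wildtype 3 lowest and mutant 4 highest. The means were 185 ± 28.9 (SD, n = 3) and 189.8 ± 30.7 (SD, n = 4), and the log2 fold change was 0.03 (SE 0.155, 95% interval -0.33 to 0.39, limma adjusted p = 0.908), with a negative sign without wildtype 3 (-0.09) or mutant 4 (-0.06) and also with array weights (-0.10), and when libraries were scaled by median of ratios (-0.01), by quantiles (-0.10) or on endothelial genes (-0.37). The interval leaves room for a change of either sign. Gas6 lies on chromosome 8 from 13465374 to 13494490 on the minus strand.

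Of 6 partners of Gas6 5 were tested, of which Axl fell and Pros1 rose. Axl was at 54.9, 67.7 and 89.5 in wildtype 1 to 3 and at 17.3, 26.6, 17.5 and 18.4 in mutant 1 to 4. Every mutant library was far below the lowest wildtype library. It fell from 70.7 ± 17.5 to 19.9 ± 4.46, and the log2 fold change was -1.77 (SE 0.199, limma adjusted p = 0.00183), a call that held in every alternative run. Axl is also a receptor of macrophages and dendritic cells. The 12 phagocyte markers summed to 2671, 3647 and 4324 in wildtype 1 to 3 and to 714, 1640, 700 and 762 in mutant 1 to 4. Of the 12, 10 were called lower and 2, whose groups overlapped, were not called. The order of the wildtype libraries was the same for Axl and for this sum, and mutant 2 was the highest mutant for both. The part of phagocytes in the fall of Axl was not tested. Mertk was at 18.6 ± 1.17 and 18.1 ± 0.861 (log2 fold change -0.03, adjusted p = 0.79; 0.01 without wildtype 1). Tyro3 was under the filter, at 0.215 to 0.417 over the 7 libraries. Pros1, protein S, the other ligand of these receptors and an anticoagulant, rose from 30.4 ± 2.11 to 43.6 ± 3.32 (log2 fold change 0.51, limma adjusted p = 0.00901), a call lost without wildtype 2 (0.0507).

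**Figure D3:**
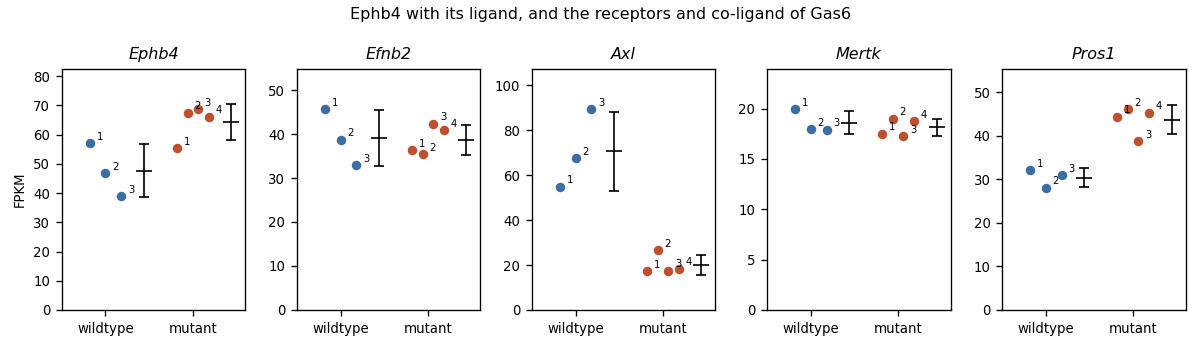
FPKM (vertical axis, from 0) of Ephb4, its ligand Efnb2, and Axl, Mertk and Pros1 of the Gas6 system in each wildtype (blue) and mutant (orange) library, numbered by replicate, with the mean and SD in black. The groups overlap for Efnb2 and Mertk, Axl is lower in all 4 mutants and Pros1 higher.

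Cryab, the small heat shock protein alpha B-crystallin, varied most among the mutants. It was at an FPKM of 107, 77.7 and 61.8 in wildtype 1 to 3 and at 60.1, 45.4, 111 and 82.8 in mutant 1 to 4. The groups overlapped throughout, with the highest and the lowest value of all 7 libraries both in mutants. The means were 82.25 ± 23.1 (SD, n = 3) and 74.9 ± 28.7 (SD, n = 4), and the log2 fold change was -0.18 (SE 0.31, 95% interval -0.89 to 0.54, limma adjusted p = 0.741), and the value was 0.03 without wildtype 1 or mutant 2. Cryab is abundant in collecting duct cells of the medulla. Hsd11b2, a collecting duct enzyme, was at 43.8, 40.3 and 31.7 in wildtype 1 to 3 and 21.2, 19.5, 42.0 and 29.7 in mutant 1 to 4, and Aqp2, its water channel, at 90.9, 95.4 and 52.0 and at 40.0, 19.9, 59.1 and 23.1. Both were highest in mutant 3 and lowest in mutant 2 among mutants, and lowest in wildtype 3 among wildtype libraries, as Cryab was. Hsd11b2 was highest in wildtype 1, as Cryab was, and Aqp2 in wildtype 2. The part of collecting duct cells in the level of Cryab was not tested.

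Of 6 genes listed as partners of Cryab, which are small heat shock genes, Bag3 and the transcription factor Hsf1, 2 rose and 0 fell. Hspb8 rose from 6.68 ± 1.96 to 24.4 ± 4.03 (log2 fold change 1.75, limma adjusted p = 0.00183), a call that held in every alternative run, and Bag3, the cochaperone that Hspb8 binds, by 0.52 (0.0284), but leaving out any library other than mutant 3 ended this call (largest adjusted p = 0.1). Hspb1 was not called (log2 fold change 0.22, adjusted p = 0.591). Hspb2, which lies next to Cryab on chromosome 9 and overlaps it by 1030 bases on the opposite strand, was at 2.76 and 2.69, and reads of the overlap cannot be assigned if counting ignored strand. Of 10 heat shock and early response genes 1 was called lower, Hspa1b, whose reads may be shared with its copy Hspa1a. That call was lost when any library except mutant 4 was left out (largest adjusted p = 0.143). Cryab lies on chromosome 9 from 50751325 to 50756636 on the plus strand.

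Counted over all 44 partner genes of the 8 markers, 35 were tested, 8 rose, 2 fell (Axl and Igsf8) and 25 were not called, with a median log2 fold change of 0.22. Without wildtype 1, wildtype 3 or mutant 4 the number of rises was 5, without mutant 1 or mutant 2 it was 4, and without wildtype 2 it was 3. Under endothelial scaling 1 rise was called, that of Hspb8. These lists were drawn up with earlier results of the data known.

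Other venous genes moved in both directions. Of 11 further markers of veins or of the ascending vasa recta 10 were tested, 5 rose, 2 fell and 3 were not called, with a median log2 fold change of 0.64. Nrp2, a co-receptor of venous and lymphatic endothelium, rose from 23.8 ± 5.77 to 38.4 ± 5.12 (log2 fold change 0.69, limma adjusted p = 0.033). Flt4, the receptor of VEGF-C, rose by 0.60 (0.0189), and Aplnr, the apelin receptor of veins, by 0.94 (0.0463). Vwf, von Willebrand factor, rose by 1.02 (0.00859). Selp was at 2.17, 3.31 and 1.35 in wildtype 1 to 3 and at 28.7, 31.3, 6.95 and 11.2 in mutant 1 to 4, a rise of 2.46 (0.0172). The call was lost for Nrp2 in fits lacking 1 of wildtype 2 and 3 and mutant 1, 2 and 4 (largest adjusted p = 0.113), for Flt4 without wildtype 2 or mutant 1 (0.0761), for Aplnr without any library except mutant 2 (0.14) and for Selp without wildtype 1 or wildtype 3 (0.0662). The number of rises was 2 without wildtype 2, wildtype 3 or mutant 1 and 3 without mutant 4, and under endothelial scaling it was 2, Vwf and Selp.

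The 2 falls were of genes linked to the vasa recta. Fxyd6, a regulator of the sodium pump, fell from 14.4 ± 2.57 to 8.74 ± 1.47 (log2 fold change -0.66, limma adjusted p = 0.0256), and Igf1, insulin-like growth factor 1, which macrophages also make, from 13.9 ± 1.77 to 9.19 ± 1.29 (-0.55, 0.0264). The call was lost for Fxyd6 when 1 of wildtype 1 and 2 and mutant 1, 2 and 4 was left out (largest adjusted p = 0.108) and for Igf1 without wildtype 1, wildtype 2, mutant 1 or mutant 2 (0.114). Emcn, endomucin, and Tek, the angiopoietin receptor, had log2 fold changes of 0.30 and 0.35 and were not called (0.282 and 0.108), Tek being called without wildtype 1 (0.0399). Vcam1 was not called as measured (log2 fold change 1.19, adjusted p = 0.0587) but was without mutant 3 (0.0064). Ackr1, a marker of postcapillary venules listed under its older symbol Darc, was under the filter, with mean FPKM of 0.138 and 0.425.

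**Figure D4:**
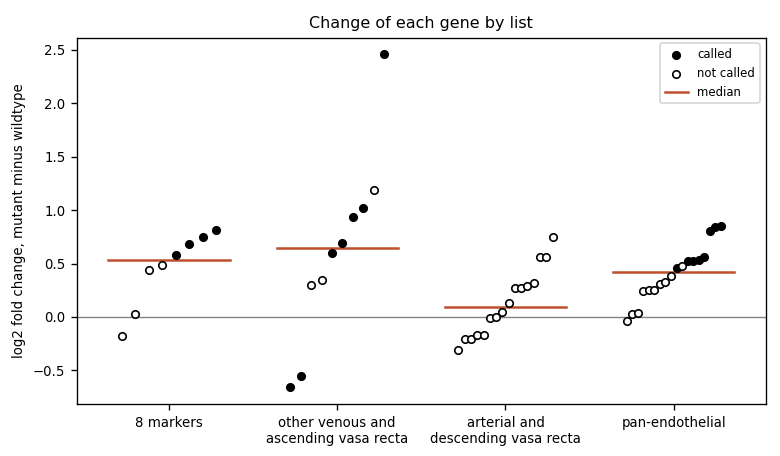
Log2 fold change of FPKM + 1, mutant minus wildtype, of each tested gene (point, filled where called) in 4 lists, with the median of each list as a line. The medians are 0.53 for the 8 markers, 0.64 for the other venous genes, 0.09 for the arterial genes and 0.42 for the general endothelial genes.

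Of 16 markers of arteries and of the descending vasa recta 0 were called by limma (3 at an unadjusted p under 0.05), with a median log2 fold change of 0.09. Under endothelial scaling 5 of the 16 were called, all lower, with a median of -0.30. Those 3 were Aqp1, the water channel of the descending vasa recta and the proximal tubule (log2 fold change 0.75, adjusted p = 0.0586), Slc14a1, the urea transporter of the descending vasa recta (0.56, 0.131), and Gja5, the arterial connexin 40 (0.56, 0.122). Nrp1, the arterial co-receptor, was at -0.31 (0.296). Whether the venous genes as a group differed from the arterial genes was not tested. The test of the Ephb4 to Efnb2 ratio covers that pair of genes only. The 18 general endothelial genes, of which 8 rose and 0 fell, had a median of 0.42. Their number of rises was 2 without wildtype 2, 3 without mutant 1 or mutant 4, 4 without wildtype 3 or mutant 2, and 3 at the same library total.

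Set against the general endothelial level, the rises of the markers were smaller, as those of any gene would be, because that level was itself higher in the mutants. The mean log2(FPKM + 1) of the 18 endothelial genes was 6.84, 6.69 and 6.33 in wildtype 1 to 3 and 7.04, 6.99, 7.03 and 7.07 in mutant 1 to 4. All mutant libraries were above all wildtype libraries on this measure, and wildtype 3 was the lowest. Each marker was then taken relative to this mean within its library. Nr2f2 was 0.34 higher in mutants on this relative log2 scale, Gpr182 0.41, Cd9 0.27 and Tll1 0.17 higher, Ephb4 0.03 and Plvap 0.08 higher, and Gas6 and Cryab had differences of -0.37 and -0.58. For Nr2f2 the relative values were -3.19, -3.34 and -3.03 in wildtype and -2.82, -2.65, -2.80 and -3.12 in mutants. Mutant 4 thus lay inside the wildtype range. Cd9 stayed apart, at 0.30 to 0.57 in wildtype and 0.58 to 0.78 in mutants. So did Gpr182, narrowly, at -2.90 to -2.56 and -2.55 to -2.07. Gas6 was lower in every mutant (0.32 to 0.79) than in any wildtype library (0.88 to 0.94). The groups overlapped for Ephb4, Plvap, Cryab and Tll1. The share of all tested genes that are apart on this relative scale was not counted. When all genes were rescaled by this endothelial level, the median log2 fold change of all tested genes was -0.31 and 0 of the 8 markers were called, with limma adjusted p of 0.0751 for Nr2f2, 0.0679 for Gpr182, 0.134 for Cd9 and 0.301 for Tll1. Some named genes that were not called as deposited were called lower by limma under that scaling. Among them were Efnb2 (-0.40, adjusted p = 0.0361), Mertk (-0.42, 0.0398), Cd81 (-0.69, 0.0163) and Nrp1 (-0.71, 0.0184).

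The markers also varied together within the wildtype group. All 8 were highest in wildtype 1, and 7 of the 8, all but Tll1, were lowest in wildtype 3, which was also the library with the lowest relative depth and the lowest endothelial mean. This order was not particular to the markers. The endothelial mean fell likewise, from 6.84 to 6.69 and 6.33 in wildtype 1 to 3. The summed FPKM of the arterial list did so too, at 844.3, 811.5 and 557.8. Deviations from the wildtype mean ran from 0.15 (Cd9) to 0.42 (Cryab) in wildtype 1 and from -0.48 (Gpr182) to -0.12 (Cd9 and Tll1) in wildtype 3. Among mutants no library was highest or lowest for all. Mutant 1 was lowest for 4 markers, mutant 3 and mutant 4 were each highest for 3, and the deviations of Cryab, from -0.63 in mutant 2 to 0.64 in mutant 3, were the widest.

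**Figure D5:**
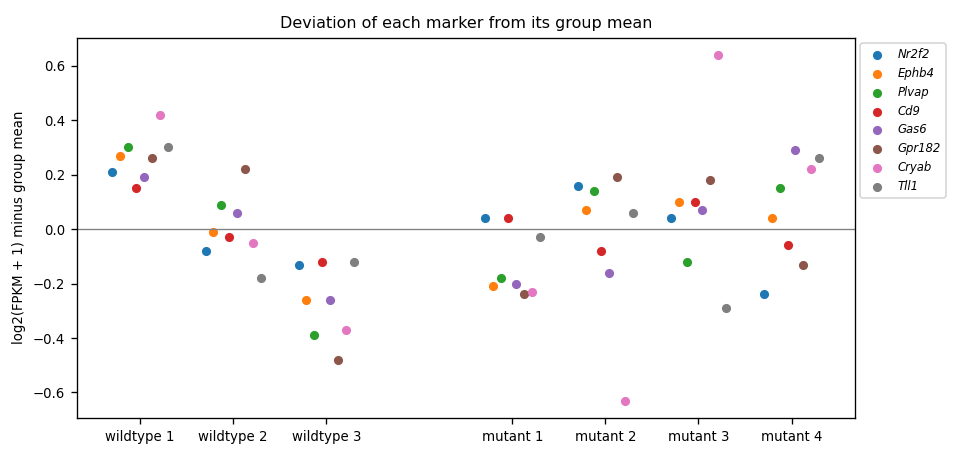
Deviation of log2(FPKM + 1) of each of the 8 markers (colours) from the mean of its group, by library. Points of wildtype 1 all lie above 0 and points of wildtype 3 all below, while the points of the mutant libraries lie on both sides.

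For each marker the tested gene with the most similar course over the 7 libraries was found, as the smallest mean absolute difference of centred log2(FPKM + 1) values. For Plvap this was Ramp2, the partner of the adrenomedullin receptor in endothelium, at 0.033, and for Gas6 it was Icam2, an endothelial adhesion molecule, at 0.030. For Cd9 it was Mal, a membrane protein of tubule epithelium, at 0.040, and for Nr2f2 it was Ldb2, an adaptor of LIM domain factors, at 0.065. Ephb4 was nearest to Armcx1 (0.035), Gpr182 to Bok (0.099), Tll1 to Acyp2 (0.070) and Cryab to Fmod (0.084). All libraries enter each of these values, which share the depth and cell makeup of the libraries.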

How the data were processed

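The 3 wildtype and 4 mutant libraries were told apart by their titles. Poly(A) RNA was taken for stranded, paired-end sequencing, per the labels' protocols. Reads were handled with RSEM 1.2.28, Bowtie2 2.3.4.1 and Trimmomatic 0.39 on mm10, per the submitters' processing notes. The annotation is not given in the sources used here, nor is the use of strand in counting or any scaling between libraries. The deposited values are FPKM, per the file headers. Among entries under an FPKM of 0.3, 33.0 to 37.5% fell at ratios of whole reads between libraries (within 0.01 on the log2 scale), too few to recover counts, so absolute depth is unknown.

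Of 27014 entries, 429 without a gene name (18.35 to 29.26% of the FPKM of a library) were left out and 27 symbols on 2 entries were summed. Tests covered the 13420 genes whose FPKM averaged 1 or more, as log2(FPKM + 1), and used limma 3.58.1 (R 4.3.3, empirical Bayes with an intensity trend, two-sided, Benjamini-Hochberg adjustment over all tested genes). The fit was also run on simulated data. There each gene varied independently, without shifts shared by genes of a library, so the error rate in the real data was not measured. The log2(FPKM + 1) scale understates changes of low genes. Within groups, pairs of libraries with identical values numbered 0. The 8 markers, the gene lists and the tests were chosen with earlier results of these data known. Named genes were the 8 markers, their listed partners, the venous and arterial lists, defining markers of other cell types, and for each marker the 1 most similar gene. B130024G19Rik, Gtpbp3 and Hspb2 were named for their overlap with markers, and Pdpn, Ren1, Notch3, Slc12a3, Krt8, Krt18, Krt19, Hspa1b, Kap, Umod and Ccl21a after their values were seen. Promoter windows are RefSeq's (GRCm38.p6), found for 5 of the 8 markers. Coordinates are from GENCODE M21, counted from 1. Alternatives were other pseudocounts, filters, scalings, weights, no trend, a replicate block and leaving out each library.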

Additional observations from a re-analysis of the deposited data

How the results depend on the processing

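The 18 alternatives moved the counts of calls, and some also moved the balance of higher and lower calls over all genes. The number of genes called was 2161 as reported, 1381 (576 higher) after rescaling to the same total, 3777 (180 higher, 3597 lower) after scaling on endothelial genes, 4070 (2258 higher, 1812 lower) with array weights, and 845 to 2290 (324 to 1205 higher, 521 to 1085 lower) with 1 library left out. Of all calls 54.4% were higher as reported, 41.7% at the same total, 42.0% under median-of-ratios scaling and 4.8% under endothelial scaling, where the median of all genes was -0.31. The 8 markers gave 2 calls with no filter or at the same total, 0 under endothelial scaling and 2 to 5 with 1 library left out. Other venous genes called higher numbered 3 with no filter, 2 under endothelial scaling and 2 to 5 with 1 library left out. Arterial calls numbered 5 under endothelial scaling, 1 with array weights and 0 with any 1 library left out. Partners called higher numbered 5 with no filter, median-of-ratios scaling or quantile normalization, 1 under endothelial scaling and 3 to 8 with 1 library left out. The Ephb4 to Efnb2 difference was 0.38 to 0.49 with 1 library left out, where p cannot go below 0.0667. The causes were not tested.

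Among the genes named, signs turned only for those that were not called. For Gas6 the log2 fold change was -0.01 (median of ratios), -0.10 (quantile), -0.37 (endothelial scaling), -0.10 (array weights), -0.06 (replicate block), -0.09 to 0.13 with 1 library left out (-0.09 without wildtype 3, -0.06 without mutant 4). Cryab ranged from -0.39 to 0.03 with 1 library left out (0.03 without wildtype 1 or mutant 2), Efnb2 at 0.11, 0.02 and 0.04 without wildtype 1, mutant 1 or mutant 2, Mertk at 0.01 without wildtype 1 and Nr2f6 from -0.04 (without wildtype 3) to 0.25. Endothelial scaling gave Cav1 -0.07, Cd151 -0.11, Hspb1 -0.18, Bmp1 -0.12, Emcn -0.11, Tek -0.06, Nr2f6 -0.22 and Cxcl10 -0.06, and array weights gave Hspb1 -0.04.

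Same-numbered libraries of the groups had correlations of deviations of -0.061, 0.026 and -0.281, and differently numbered ones of -0.146 to 0.244. Values so few, from deviations centred within small groups, cannot tell whether the numbers pair the libraries. With the replicate number as a block, 684 genes were called, 261 higher and 423 lower, with 2 of the 8 markers, 3 other venous genes and 1 partner called higher. With absolute depth unknown, no counting error could be given, and 3 against 4 libraries limit the precision.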
